A study of Sus scrofa with 5 samples.

Results

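Adipokines are the hormones, enzymes and signalling proteins that fat releases into the blood or into its own surroundings. In pig backfat, the subcutaneous fat layer of the back, 8 of them were followed: LEP, ADIPOQ, RETN, CFD, APLN, NAMPT, AGT and RARRES2. The members were chosen by gene symbol, and every probe set of the Affymetrix porcine array that was annotated with exactly 1 of these symbols was taken. Of the 8 genes, 7 had a probe set, among 6765 genes with 1 symbol on the array, and they were covered by 10 of 24123 probe sets. APLN, which encodes the peptide apelin, had no probe set and was not measured.

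Backfat RNA of 5 females from an Iberian × Landrace backcross was hybridized, 1 array per animal. All were fed the same cereal diet, slaughtered at about the same age, and the labels give no treatment. The animals BC4, BC5 and BC6 formed the H group and BC2 and BC3 the L group, which stand for opposite ends of a score of carcass quality and intramuscular fatty acid composition, with more polyunsaturated fatty acids in the muscle of H pigs. The labels name the animals only, and the group of each animal was taken from the study's table of animals. Values are on the log2 scale, so a step of 1 is a doubling, and 2.17 was the lowest value on every array. A probe set with the same value on all 5 arrays has no measured level.

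Most of the genes followed here are made by the adipocyte itself. Leptin (LEP) reports the size of the fat stores to the brain, and adiponectin (ADIPOQ) raises the response of liver and muscle to insulin. Resistin (RETN) is a fat hormone in rodents and mainly a product of macrophages in humans. Complement factor D (CFD, also called adipsin) is a protease that starts the alternative complement pathway, angiotensinogen (AGT) is the precursor of the angiotensins, chemerin (RARRES2) is a chemoattractant that also acts on adipocyte differentiation, and NAMPT carries out the first step from nicotinamide towards NAD and is also found outside cells under the name visfatin.

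The label of the tissue was compared with markers of its cells. Of 10 listed adipocyte markers 6 were measured, and FABP4, the fatty acid carrier of adipocytes, lay between 15.36 and 15.49 on the 5 arrays. A note on RNA extraction names liver, but of 11 measured hepatocyte markers 2 were identical on all arrays and the highest value of the others was 4.69, for ALB on BC2, close to the array medians of 4.21 to 4.29. APOA2, APOH, TTR and HPX, which define hepatocytes, lay at or within 0.1 of the lowest value. The Spearman correlations of BC5 with the other arrays, across 17556 probe sets not identical on all arrays, ran from 0.971 to 0.981. Those between the other arrays ran from 0.978 to 0.986, so these ranges overlapped. All 6 measured skeletal muscle markers and 8 of 9 endothelial markers were highest on BC5. The summed linear signal of the muscle markers was 555 on BC5, 46.8 and 35.2 on the other H arrays, and 40.6 and 169 on BC2 and BC3. The 3′ minus 5′ difference of the control probe sets, which widens as RNA degrades, was also greatest on BC5 for GAPDH, at 2.49 against 1.52 to 1.90 elsewhere. Group differences of the adipokines, and those of their ranges between animals that end at BC5, are therefore also given without it.

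None of the adipokines passed the test of H against L in limma, whose p-values measure only the spread between these animals, and the values of both groups overlapped for every one with a measured level. The mean of H lay below that of L for all 6 measured genes, by 0.12 to 1.16 on the log2 scale (LEP by its S3 probe set), with standard errors from 0.27 to 2.19. Without BC5, the mean of H lay above that of L for LEP, ADIPOQ and NAMPT. The probe sets of leptin and adiponectin had the widest ranges between single animals of the 7, up to 67.3-fold for leptin and 8.61-fold for adiponectin, and BC5 was the low end of both. For LEP S3 that low end, 4.41, lay close to the median of the BC5 array, 4.26. Without BC5 these ranges were 4.62-fold and 3.19-fold, still the widest of the adipokine genes. In all 7 probe sets the range over the 3 H animals was wider than that over the 2 L animals. A range tends to widen with the number of animals. By SD, the H animals varied less than the L animals for CFD (0.447 against 0.455) and RARRES2 (0.712 against 0.796). In whole backfat, fewer cells of a type and less RNA per cell cannot be told apart.

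LEP was represented by 4 probe sets. The S3 probe set (Ssc.265.1.S3_at) gave 9.33 on BC2 and 8.43 on BC3 of the L group, and 8.27 on BC4, 4.41 on BC5 and 10.48 on BC6 of the H group. The S2 probe set (Ssc.265.1.S2_at) gave 9.01 and 7.96 in L, and 7.54, 5.26 and 9.77 in H. Both probe sets put the animals in the same order, from BC6 through BC2, BC3 and BC4 down to BC5, so that the highest and the lowest leptin signals were both found in H pigs and both L pigs lay between them. The other 2 probe sets, which the array's design lists among its controls and names for the 5′ end and the middle of leptin, had single values of 2.34 and 2.18 on all 5 arrays and hold no measured level.

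Between BC6 and BC5, the LEP signal differed by 6.07 in S3 (67.3-fold) and by 4.51 in S2 (22.7-fold). This range was the 11th widest of 17556 probe sets for S3 and the 48th widest for S2, where the median probe set had a range of 0.576. On BC5, S3 at 4.41 lay close to the median of the array, 4.26, so the size of the fold is uncertain. S3 minus S2 was -0.86 on BC5 and 0.33 to 0.73 on the other arrays. Without BC5, the widest difference was that between BC6 and BC4, 2.21 in S3 (4.62-fold) and 2.23 in S2 (4.69-fold), and these were the 380th and 368th widest of 17025 probe sets with a median range of 0.446. Ranked from the brightest of 23999 probe sets, S3 moved from position 1517 on BC6 to position 11822 on BC5. A rank places a probe set among all others of the same array and does not compare amounts of transcript, because probes differ in how strongly they bind.

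For the group contrast of leptin, S3 averaged 7.72 ± 3.07 over the H animals (SD, n = 3) and 8.88 ± 0.641 over the L animals (SD, n = 2). H minus L came to -1.16 with a standard error of 2.19, and its adjusted p in limma was 1. For S2 it came to -0.96 with a standard error of 1.63, also at an adjusted p of 1. The 95% interval of the S3 difference ran from -7.73 to 5.41, so differences of either sign and of large size remained within it. Without BC5, which held the lowest leptin, the highest muscle markers and the widest 3′ to 5′ difference, S3 was 0.50 higher in H than in L and S2 0.17 higher. The part of muscle tissue or of RNA quality in the low leptin signal of BC5 was not tested.

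**Figure D1:**
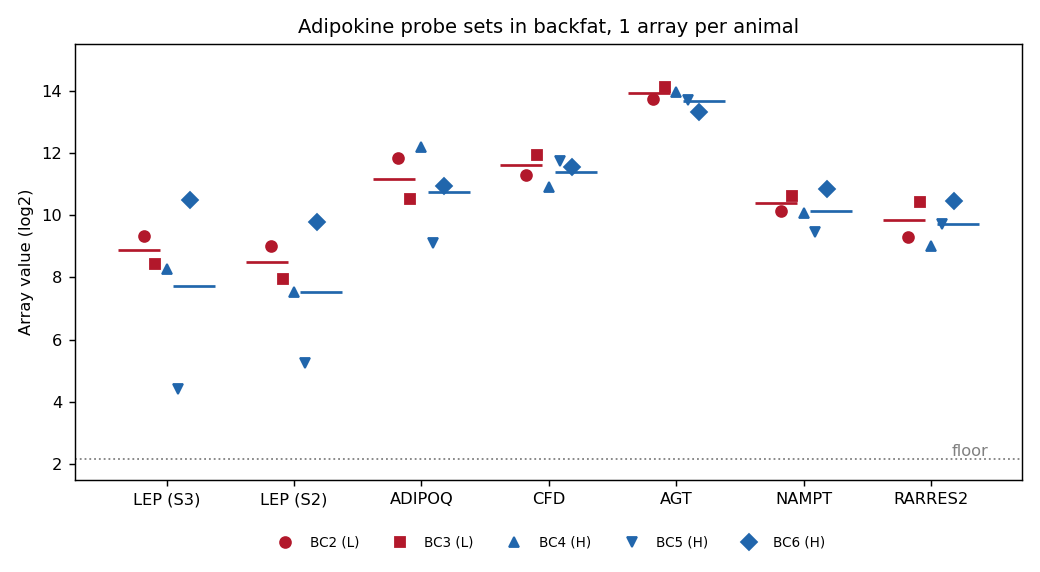
Array value (log2, vertical axis) of the 7 adipokine probe sets with a measured level (horizontal axis), 1 point per animal, red for L and blue for H, with a short line at each group mean and a dotted line at the lowest value on the arrays. Points of both groups intermix in every probe set, and BC5 stands far below the other animals in both LEP probe sets, at 4.41 and 5.26.

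ADIPOQ (Ssc.18549.1.S1_at) gave 11.82 on BC2 and 10.52 on BC3 of the L group, and 12.20 on BC4, 9.09 on BC5 and 10.92 on BC6 of the H group. As for leptin, BC5 had the lowest value, but the highest was that of BC4, which was next to lowest for leptin. From BC4 to BC5 the signal differed by 3.11 (8.61-fold), the 184th widest range of 17556 probe sets. Without BC5 the widest difference was that between BC4 and BC3, 1.67 (3.19-fold), the 882nd widest of 17025. The probe set ranked 419th of 23999 on BC4 and 3441st on BC5.

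By group, ADIPOQ averaged 10.74 ± 1.56 over the H animals (SD, n = 3) and 11.17 ± 0.919 over the L animals (SD, n = 2). H minus L came to -0.44 with a standard error of 1.19 and a 95% interval from -4.01 to 3.14, and its adjusted p in limma was 1. Its sign depended on single animals: H lay 0.39 above L without BC5 and 0.21 above without BC2, and with arrays weighted by their quality H lay 0.067 above L. BC5 was the array with the lowest weight, 0.611, where BC4 had 1.68. Of the 6 adipocyte markers, 2 were lowest on BC5 and 2 highest. CEBPA, a transcription factor of mature adipocytes, was at 5.71 on BC5 and between 7.21 and 7.53 elsewhere, and the lipase LPL was at 12.84 on BC5 and between 13.52 and 14.01 elsewhere. LIPE and FABP4 were highest on BC5, and PPARG and CIDEA lay inside the range of the others. The summed linear signal of the list, most of it from FABP4, was 63593 on BC5 and 64033 to 68714 on the other arrays. The mean log2 value of the list was 11.45 on BC5 and 11.76 to 11.85 on the others. Whether these markers and ADIPOQ moved for a shared reason was not tested.

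**Figure D2:**
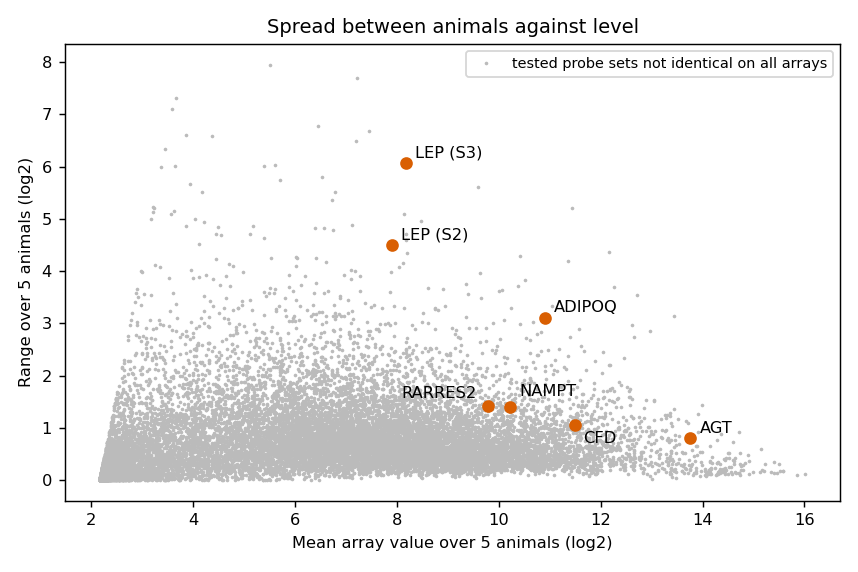
Range over the 5 animals (log2, vertical axis) against mean array value over the 5 animals (log2, horizontal axis), with 1 grey point for each of 17556 tested probe sets and orange points for the adipokines. LEP and ADIPOQ lie near the upper edge of the cloud at 6.07, 4.51 and 3.11, with BC5 as the low end, while CFD, AGT, NAMPT and RARRES2 have ranges of 0.80 to 1.42.

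CFD (Ssc.11074.1.S1_at) gave 11.30 and 11.94 on the L arrays BC2 and BC3, and 10.89, 11.75 and 11.55 on the H arrays BC4, BC5 and BC6. BC3 was highest and BC4 lowest, a range of 1.05 (2.06-fold), and BC5 lay well inside the others. The mean was 11.40 ± 0.447 over the H animals (SD, n = 3) and 11.62 ± 0.455 over the L animals (SD, n = 2). H minus L came to -0.22 with a standard error of 0.388 and a 95% interval from -1.39 to 0.94, and its adjusted p in limma was 1. The difference took the opposite sign without BC3 (0.10) and without BC4 (0.032), and was -0.39 without BC5. Factor D cleaves factor B once it is bound to C3. CFB was at 4.31 and 5.87 in L and at 3.69, 4.87 and 5.44 in H, so that BC3 was highest and BC4 lowest, as for CFD. C3 was highest on BC6, at 9.25, and between 6.65 and 8.11 on the other arrays.

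AGT (Ssc.4804.1.S1_at) was the least variable of the adipokine probe sets with a measured level. It gave 13.72 and 14.12 on BC2 and BC3 of the L group, and 13.95, 13.70 and 13.32 on BC4, BC5 and BC6 of the H group. Its rank lay between 91 and 182 of 23999 on the 5 arrays, so it was among the brightest signals of backfat in every animal. The mean was 13.66 ± 0.320 over the H animals (SD, n = 3) and 13.92 ± 0.281 over the L animals (SD, n = 2). H minus L came to -0.27 with a standard error of 0.265 and a 95% interval from -1.06 to 0.53, and its adjusted p in limma was 1. This was the only adipokine whose difference stayed below 0 whichever animal was left out, from -0.47 to -0.068. Without BC5 the AGT difference was -0.29. With all 5 arrays, its unadjusted p of 0.381 from limma was the smallest of the 7 probe sets. Angiotensinogen is best known as a liver product, and the hepatocyte markers, averaged, lay between 2.55 and 3.04 on the arrays on which AGT lay above 13.

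NAMPT (Ssc.22083.1.S1_at) gave 10.14 and 10.61 on BC2 and BC3 of the L group, and 10.07, 9.46 and 10.85 on BC4, BC5 and BC6 of the H group. As with leptin, BC6 was highest and BC5 lowest, here 2.63-fold apart, and both L animals lay between them. Without BC5 the widest difference was 1.72-fold, between BC6 and BC4. The mean was 10.13 ± 0.700 over the H animals (SD, n = 3) and 10.38 ± 0.333 over the L animals (SD, n = 2). H minus L came to -0.25 with a standard error of 0.521 and a 95% interval from -1.81 to 1.31, and its adjusted p in limma was 1. Without BC5, H lay 0.084 above L, and without BC3 the difference was -0.016.

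RARRES2 (Ssc.1494.1.S1_at) gave 9.29 and 10.41 on BC2 and BC3 of the L group, and 9.03, 9.72 and 10.45 on BC4, BC5 and BC6 of the H group. BC6 and BC3, from different groups, shared the top within 0.04, and BC4 was lowest, 2.68-fold below BC6. The mean was 9.73 ± 0.712 over the H animals (SD, n = 3) and 9.85 ± 0.796 over the L animals (SD, n = 2). H minus L came to -0.12 with a standard error of 0.640 and a 95% interval from -2.04 to 1.80, and its adjusted p in limma was 1. H lay 0.44 above L without BC3 and 0.23 above without BC4, and the difference was -0.11 without BC5. BC4 was thus the animal with the most adiponectin signal and the least of both CFD and RARRES2.

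RETN (Ssc.23801.1.S1_at) had a value of 2.17 on all 5 arrays and thus no measured level, so neither a difference between animals nor one between groups could be seen. Macrophage markers were present in the same RNA: CD163 lay between 6.28 and 8.81 and C1QC between 7.07 and 10.09. All 7 measured macrophage markers were highest on BC6, the animal highest for LEP, NAMPT and RARRES2. Their summed linear signal was 3256 on BC6, 804 on BC4 and 691 on BC5 of the H group, and 1335 and 1400 on BC2 and BC3 of the L group. Of 5 fibroblast and preadipocyte markers with a measured level, 4 were also highest on BC6. Their mean log2 value was 11.77 on BC6, 11.26 on BC2, 11.11 on BC3, 10.88 on BC4 and 10.81 on BC5. This was the order of the animals for LEP, but no single marker of the list had it. PDGFRB was highest on BC5, at 12.85, and lowest on BC2, at 11.61. By the summed linear signal of the list, BC5 lay above BC4. The part of macrophages, fibroblasts or preadipocytes in these values was not tested. Without BC6, the H minus L difference was -0.48 for RARRES2, -0.61 for NAMPT and -2.54 for LEP S3. Of the neutrophil markers, another possible source of resistin, ELANE had no measured level, S100A8 did not exceed 2.17 and S100A12 did not exceed 3.23. S100A9 was at 6.93 and 7.15 in L and at 5.32, 2.89 and 5.32 in H, so that both L animals lay above all H animals (adjusted p = 1 from limma). All H arrays lay below all L arrays for 9.38% of the probe sets with distinct values on all arrays. S100A9, at 5.321 on both BC4 and BC6, falls outside that set. The mean of S100A9 was lower in H, as were those of the 6 adipokines with all 5 arrays. S100A8 lay near the floor on all arrays, and S100A12 was at 3.23 on BC2 and at 2.19 to 2.27 elsewhere. The part of neutrophils in the adipokine differences was not tested.

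**Figure D3:**
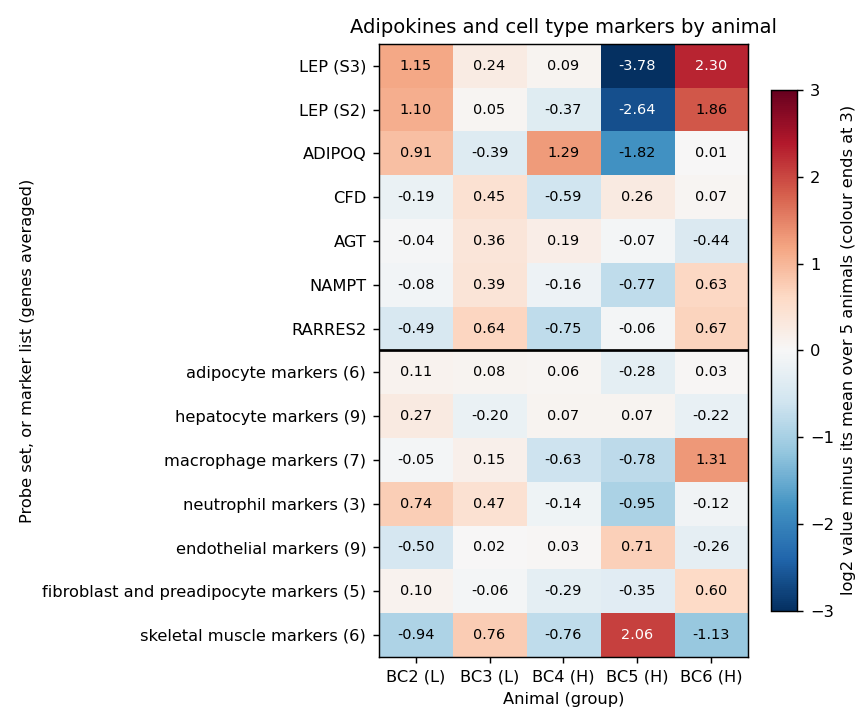
Log2 value minus its mean over the 5 animals (colour and printed number), for each adipokine probe set above the black line and for the mean of each list of cell type markers below it, with the animals and their groups as columns. BC5 is lowest for LEP, ADIPOQ and NAMPT and highest for skeletal muscle and endothelial markers, and BC6 is highest for LEP, NAMPT, RARRES2 and macrophage markers.

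Over the 6 measured genes, counted by the brighter probe set of LEP, the mean of H was below that of L for 6, and the median difference was -0.26. Over all 17556 probe sets not identical on all arrays, the median difference was 0.0069, and the mean of H was lower for 44.6%. Both comparisons used all 5 arrays. Without BC5, the mean of H lay above that of L for LEP S3 (0.50), ADIPOQ (0.39) and NAMPT (0.084). It stayed below for CFD (-0.39), AGT (-0.29) and RARRES2 (-0.11). The share over all probe sets was not taken without BC5. None of the 7 adipokine probe sets met the call rule, which asked for a p up to 0.01, an adjusted p up to 0.1 and at least a 1.2-fold change, against 0% of 23999, and none had an unadjusted p under 0.05 from limma, against 3.18%. The H and L arrays were separate for none of the 7, both LEP probe sets among them, and for 20.9% of the probe sets with distinct values on all arrays. With so few probe sets, this is not read as a trait of the adipokines. With 3 arrays against 2, these counts leave room for differences of the size of the intervals given above.

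**Figure D4:**
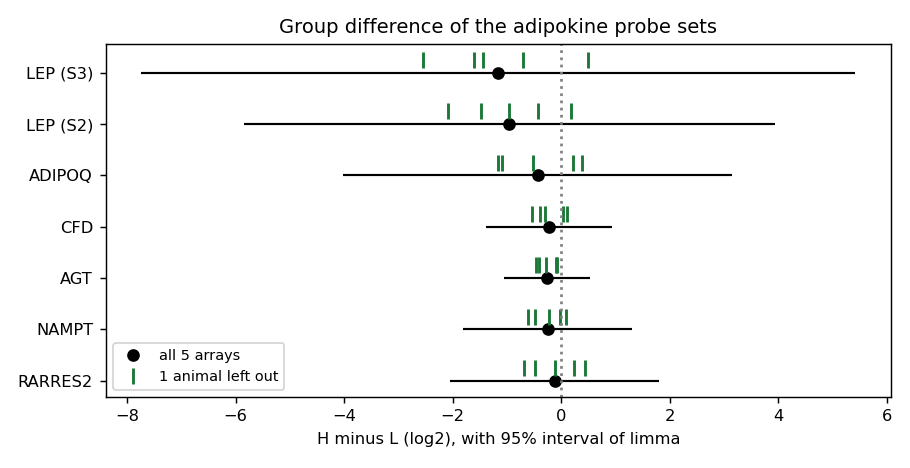
H minus L difference (log2, horizontal axis) of each adipokine probe set, as a black point with the 95% interval of limma, and above it green ticks for the differences after 1 animal was left out. Every interval spans 0, and the ticks lie on both sides of 0 for all probe sets but AGT.

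The receptors through which these factors act were compared next, from a list of 11 receptors and binding partners of which 8 had a probe set. Signals were present for the adiponectin receptors and T-cadherin (CDH13), which binds adiponectin, and for the angiotensin receptor AGTR1. ADIPOR2 was at 12.27 and 11.72 in L and at 12.30, 11.13 and 11.90 in H, with BC4 highest and BC5 lowest as for adiponectin itself. ADIPOR1 stayed between 9.64 and 10.14, CDH13 between 10.62 and 11.41, and CAP1, a proposed resistin receptor, between 10.85 and 11.20. AGTR1, through which angiotensin II acts, lay between 11.21 on BC4 and 11.83 on BC2. The leptin receptor LEPR and the chemerin receptor GPR1 had no measured level, and CCRL2, which binds chemerin, did not exceed 2.18. None of the 6 with a level passed the test, with 3 means higher and 3 lower in H. The higher means include that of CCRL2, by 0.0045 next to the floor.

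Genes around single adipokines gave the same count of calls, with 0 passing in limma in either direction and none at an unadjusted p under 0.05. For leptin signalling, 7 of 8 listed genes were measured, with 6 means higher in H, counting SOCS3 near the floor, and a median difference of 0.036. The kinase JAK2 lay between 6.25 and 6.88, the phosphatase PTPN1 between 6.89 and 7.99 with its highest value on BC6, and SOCS3, an inhibitor that leptin induces, at 2.17 on all arrays but BC6, at 2.27. For the alternative complement pathway, 6 of 8 were measured and 5 means were higher in H, that of CFP by 0.0088 at values of 3.01 to 3.11. The membrane regulators CD46 and CD55 were highest on BC6, at 11.57 and 8.18. Of the enzymes around AGT, 3 of 8 were measured: ACE had no measured level, ENPEP, which trims angiotensin II, lay between 7.25 on BC2 and 9.65 on BC5, and the prorenin receptor ATP6AP2 between 10.24 and 10.95. Of the NAD genes around NAMPT, 5 of 10 were measured, among them the deacetylase SIRT3 between 7.29 and 7.67, and NMNAT1, which follows NAMPT in the pathway, between 5.41 and 6.25. NMNAT3 did not exceed 2.18.

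Adiponectin is assembled into multimers in the endoplasmic reticulum before release. Of 7 listed genes of this step, 6 were measured, 5 means were lower and 1 was higher in H, and none passed the test. HSPA5, the main chaperone of this compartment, was at 12.27 and 12.00 in L and at 11.38, 11.54 and 11.84 in H, so the groups did not overlap (adjusted p = 1 from limma). PDIA3, a disulfide isomerase, was at 9.01 and 9.09 in L and at 9.36, 9.63 and 9.16 in H, also without overlap (adjusted p = 1 from limma). These went in opposite directions. All H arrays lay below all L arrays for 9.38% of the probe sets with distinct values, and above them for 11.5%. GSTK1, an enzyme that helps adiponectin to assemble, overlapped between the groups, between 9.20 on BC6 and 9.81 on BC3.

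Of 25 other factors that fat secretes, 18 had a probe set, all with a level above the floor on some array, and 0 passed the test. The mean of H was higher for 10 and lower for 8, with a median difference of 0.031. TNF, next to the floor, counted among the higher, and HP, at 2.47 to 3.25, among the lower. AZGP1, a lipid-mobilizing glycoprotein, was at 9.29 and 7.79 in L and at 5.86, 7.61 and 5.29 in H. All 3 H animals lay below both L animals, with BC5 of H close to BC3 of L, and the adjusted p in limma was 1. Such a separation, with all H arrays lower, held for 9.38% of the probe sets with distinct values. The groups overlapped for every other factor of this list. THBS1, a matrix protein, lay between 13.05 and 14.15, and NUCB2, the precursor of nesfatin, between 8.03 on BC5 and 9.36 on BC3. IL6, an inflammatory cytokine, was at 6.18 and 8.37 in L and at 6.67, 4.84 and 8.33 in H, again lowest on BC5. TNF stayed between 2.17 and 2.20.

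**Figure D5:**
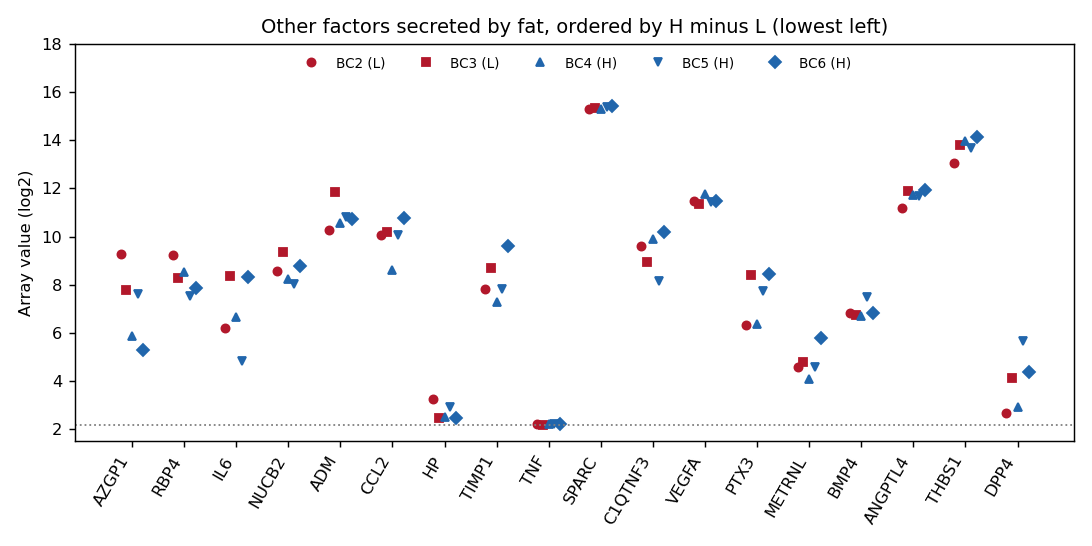
Array value (log2, vertical axis) of 18 other factors secreted by fat (horizontal axis), ordered by H minus L from the lowest, 1 point per animal, red for L and blue for H, with a dotted line at the lowest value on the arrays. AZGP1 is the gene at the left end, where the H animals at 5.86, 7.61 and 5.29 lie below both L animals, and all other genes show overlapping groups.

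The patterns of LEP and ADIPOQ across animals were set against 5607 other genes that lay above the lowest value on all arrays, by the root mean square difference between log2 profiles centred on their own means. Nearest to LEP S3 was MMD, a membrane protein of the PAQR family, at 0.603 over the 5 arrays, followed by VCAN, a proteoglycan of the extracellular matrix, at 0.876, and LOC595122 at 0.901. MMD was at 7.79 and 7.72 in L and at 7.95, 3.62 and 8.51 in H, and shared with LEP the low value of BC5 and the high value of BC6. Nearest to ADIPOQ were SFRP1, a secreted inhibitor of Wnt signalling, at 0.261, PTGDS, which makes prostaglandin D2, at 0.355, and C1H9orf16 at 0.386. SFRP1 was at 11.52 and 10.30 in L and at 11.98, 9.51 and 10.79 in H, the order of animals seen for ADIPOQ. These likenesses are descriptions over 5 arrays, on which BC5 carries much of each profile.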

How the data were processed

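RNA from the backfat of 5 pigs was measured on the Affymetrix GeneChip Porcine array. The authors deposited log2 values per probe set, corrected for background and normalized across arrays. Whether by GCRMA, as the methods state, or by RMA, as listed in the submitters' processing notes, is not settled. Liver is named in the extraction note, but backfat in the tissue label and in the methods. After removal of 124 control probe sets, H minus L was fitted for 23999 probe sets with limma 3.58.1 in R 4.3.3, without covariates, and p-values were adjusted by Benjamini-Hochberg over the whole table. Arrays have no read depth, and their number, 3 against 2, limits the precision. No batch is named in the labels.

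GEO's platform annotation gave 1 symbol for 10069 tested probe sets, several for 198 and none for 13732, and a list gene stands by its brightest probe set. The rule named all members and receptors, up to 3 genes with the smallest p from each of 7 lists, and the 3 genes nearest to each of the 2 members with the widest range. C3, IL6, TNF and single marker genes were named beyond it, after their values were seen. The members and lists were chosen with earlier results of these data known. Values within 1e-06 counted as identical. On simulated data of 23999 probe sets, the call rule was met by 19.4% of the 67 that were shifted by 1 log2 unit, 61.2% of the 67 shifted by 2 and 72.7% of the 66 shifted by 3. The shifted probe sets were drawn from all those not identical on all arrays, whose median standard error in the data was 0.191. The adipokines had larger standard errors, from 0.265 to 2.19, so these shares do not apply to them. Alternatives were other scalings, variance models, array weights, filters and thresholds, the mean over a gene's probe sets, and leaving out each animal. RNA-Seq data were not analysed here.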

Additional observations from a re-analysis of the deposited data

How the results depend on the processing

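No adipokine probe set passed the test under any alternative, with all 5 arrays or with 1 left out, nor at an adjusted p of 0.05 alone. Of 51 alternative values of the differences that kept all 5 arrays, 50 kept their sign, and that of ADIPOQ turned with array weights (0.067). In the weighted mean of H, BC4, with the highest ADIPOQ value, had a weight of 1.68 and BC5, with the lowest, 0.611. The alternative without probe sets identical on all arrays and the ranges without BC5 were chosen after seeing the data. With the mean over both probe sets, the LEP difference was -1.06.

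Without 1 animal, the H minus L difference was -2.54 to 0.50 for LEP S3, -2.08 to 0.17 for LEP S2, -1.17 to 0.39 for ADIPOQ, -0.54 to 0.10 for CFD, -0.47 to -0.068 for AGT, -0.61 to 0.084 for NAMPT and -0.68 to 0.44 for RARRES2, and the fit then had fewer samples. Those of LEP and NAMPT turned without H replicate 5, that of ADIPOQ without H replicate 5 or L replicate 2, and those of CFD and RARRES2 without L replicate 3 or H replicate 4. Over all probe sets, 0 passed with 5 arrays and 0 to 286 without 1 animal (286 without L replicate 3, 160 without L replicate 2), where 1 L array remained and its spread was taken from the H group. No paired analysis was possible because no animal number occurs in both H and L. Probe sets at the floor have no signal over background, which leaves RETN, LEPR and GPR1 without a value.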
